A study of Caenorhabditis elegans with 8 samples.

Results

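The fbxa genes are a family of F-box genes of the nematode Caenorhabditis elegans. An F-box protein is the part of an SCF ubiquitin ligase that picks the substrate. Its F-box binds a Skp1-related protein (SKR in the worm), which holds it on the cullin CUL-1, and the rest of the protein binds the target to be marked with ubiquitin. In the fbxa group the F-box is joined to an FTH domain, named after the germline gene fog-2. The group has expanded strongly by gene duplication in Caenorhabditis, and for most of its members no substrate is known. The genes were taken as every row of the count table whose WormBase symbol is fbxa followed by a number, which gave 170 of 20392 genes. These carried 169 symbols, since 2 gene IDs on the X chromosome, WBGene00018684 and WBGene00021987, share the symbol fbxa-41.

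The measurements are total RNA-seq of whole L1 larvae, the first larval stage, in 4 genotypes with 2 libraries each, named a and b. The double mutant (strain GW1468) carries both the lamin transgene and the cec-4 deletion allele ok3124. The lamin Y59C strain (GW653) carries the integrated transgene ygIs, in which the baf-1 promoter drives GFP fused to LMN-1 with the Y59C change, together with an unc-119(+) rescue marker in unc-119(ed-3) worms. The cec-4 mutant (GW828) carries ok3124 alone, and the wild-type is N2 Bristol. CEC-4 is a chromodomain protein that holds methylated heterochromatin at the nuclear envelope, and Y59C stands for a human lamin mutation found in Emery-Dreifuss muscular dystrophy. All larvae hatched in buffer for 16 h, were fed for 2.5 h and were sorted as non-green. A GFP fusion with unchanged lamin is not analysed here, so the lamin change, the transgene and the unc-119 background cannot be told apart, and the labels do not give the chromosome of the transgene. They also do not say whether libraries a and b came from separate cultures, so p-values measure the spread between these libraries, which may be technical. In whole larvae, fewer cells that express a gene and less RNA per cell cannot be told apart.

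The libraries held 30924676 to 57069281 counts, the most in wild-type b. The larval markers were present in all libraries, while the summed level of 6 yolk genes was at most 1.05 CPM (counts scaled to TMM-adjusted library totals) and that of 30 sperm protein genes at most 0.0613 CPM. The cec-4 transcript averaged, in CPM, 4.48 in the double mutant, 12.3 in lamin Y59C, 4.90 in the cec-4 mutant and 13.6 in wild-type, and so was lower in both strains labelled with the deletion. In the same order, unc-119 averaged 43.2, 41.6, 23.3 and 23.0 CPM, and lmn-1 506, 515, 451 and 447 CPM. The means of unc-119 and lmn-1 were thus higher in both strains with the lamin transgene. The collagen gene dpy-7, whose transcript peaks once in each larval stage, averaged, in CPM, 1.57 in the double mutant, 0.315 in lamin Y59C, 1.19 in the cec-4 mutant and 1.22 in wild-type. Its mean was lowest in lamin Y59C. Single libraries ran from 0.126 to 2.59 CPM, the highest in the double mutant, so the means hide a spread between libraries of 1 genotype. The part of larval timing in the values that follow was not tested.

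Most fbxa genes were transcribed at a low level in these larvae. Of the 170 genes, 8 had 0 counts in all libraries, 51 had counts but fell under the filter on low counts, and 111 were tested. The 59 untested genes held at most 62 counts over the 8 libraries, with a median of 12, so small differences between genotypes were not detectable in them at this depth. In a fit without the filter, no further fbxa gene had an adjusted p under 0.05. The tested share was 65.3% of the family and 70.4% of all genes of the table, and a share of 4.71% of the family was at 0 against 7.91% of all genes. The median level per length was 0.538 CPM per kb of exon over the family and 3.25 over all genes, and among tested genes it was 1.67 for the family and 10.6 for all. The related families were quieter by the same filter, with 14 of 104 fbxb genes (13.5%) and 19 of 48 fbxc genes (39.6%) tested.

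A few genes stood above this level. The highest was fbxa-24 on chromosome II, with a mean of 22.2 CPM over the 8 libraries and 13.3 CPM per kb. By level per length, fbxa-105, fbxa-44, fbxa-31 and fbxa-79 followed, at 10.05, 9.87, 9.76 and 9.51 CPM per kb. The next in that order were fbxa-65, fbxa-64, fbxa-150, fbxa-37 and fbxa-6, between 8.54 and 8.96 CPM per kb. In plain CPM, fbxa-67 came next with 14.7 and then fbxa-136 with 12.01, but fbxa-136 has a long transcript (5668 bp of exon against a family median of 1136 bp) and came to 2.12 CPM per kb. In all, 9 genes reached 10 CPM, 79 reached 1 CPM and 42 stayed under 0.1 CPM, and the 10 highest held 29.8% of the family's summed CPM.

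The family sat towards the ends of the chromosomes, where repeats and methylated heterochromatin are concentrated in C. elegans. Positions are those of the WBcel235 annotation, joined by gene ID alone. With each chromosome cut into 3 equal stretches, 166 of the 170 genes (97.6%) had their midpoint in an end stretch, against 12425 of 19858 nuclear genes of the table (62.6%). The 4 others were fbxa-105 (V:7390529-7392029), fbxa-145 (I:5319712-5321151), fbxa-181 and fbxa-224. Chromosome V held 71 genes (41.8% of the family, 25.2% of all genes), 60 of them in its right end stretch. Chromosome III held 60 (35.3% of the family, 13.2% of all genes), 55 of them in its left end stretch. The medians per chromosome ran from 0.178 CPM per kb on X to 2.11 on I, where only 6 genes lie, and within III and V the genes ranged from 0 to 9.76 and 10.05 CPM per kb.

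**Figure D1:**
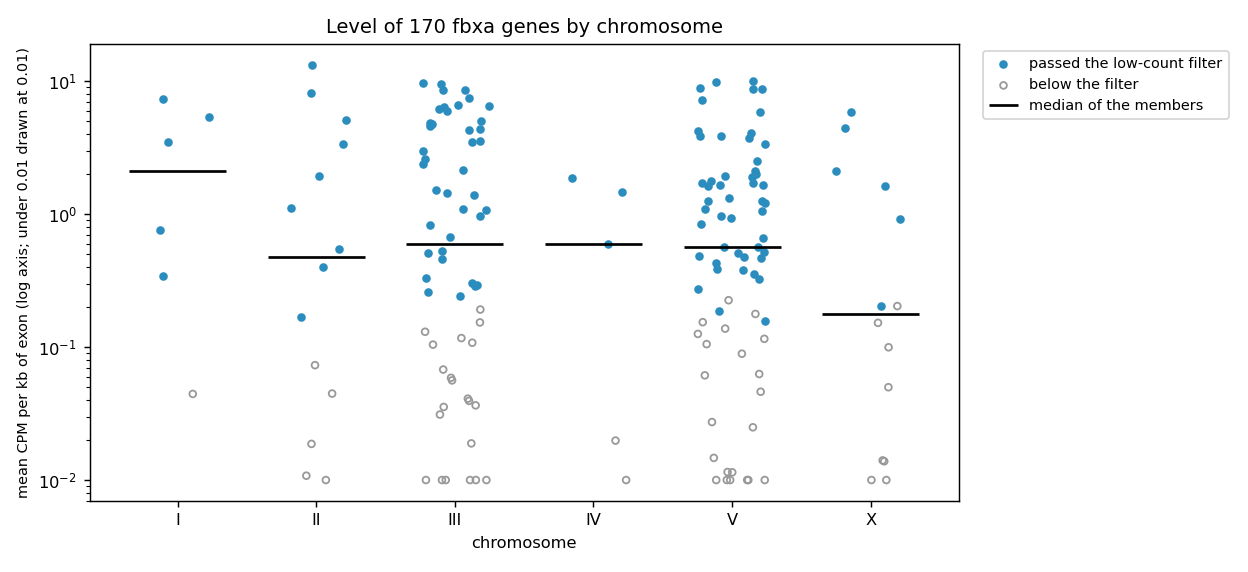
Mean level of each fbxa gene over the 8 libraries, in CPM per kb of exon on a log axis (values under 0.01 drawn at 0.01), by chromosome. Filled points passed the low-count filter, open points did not, and bars are medians of all fbxa genes of the chromosome; chromosomes III and V hold 131 of the 170 genes, which range there from 0 to 9.76 and 10.05 CPM per kb, and the highest gene, at 13.3, is on II.

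Many of the genes were neighbours of one another. With genes of 1 chromosome joined where less than 50 kb lay between them, 128 genes formed 25 runs and 42 stood alone. The longest run, III:1239048-1384252, held 27 fbxa genes among 47 genes of the table, of which 17 were tested. The next was III:2219708-2314035 with 15 fbxa genes among 24 (9 tested), then III:933422-963833 with 10 among 13 (8 tested). Genes of 1 run differed widely in level: the longest held fbxa-31 and fbxa-79 at 9.76 and 9.51 CPM per kb and fbxa-78, fbxa-151 and fbxa-208 at 0 counts. Of all fbxa genes, 26 overlapped another gene of the table (15 of them tested). Their values are uncertain, because the sources used here do not say whether the counting used the strand, and near-identical copies may share reads.

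Summed over the family, the genotypes had similar totals. The fbxa genes together gave 395 ± 16.9 CPM in the double mutant, 411 ± 28.8 in lamin Y59C, 422 ± 16.1 in the cec-4 mutant and 395 ± 18.3 in wild-type (SD, n = 2 each). By library the sums were 407 and 383 CPM in the double mutant, 432 and 391 in lamin Y59C, 411 and 434 in the cec-4 mutant and 408 and 382 in wild-type. Both cec-4 mutant sums lay above those of the double mutant and wild-type, and the libraries of lamin Y59C differed more than the group means did. The family took between 0.0369% and 0.0451% of the counts of a library. Changes were therefore sought gene by gene, with edgeR's quasi-likelihood test over all 14355 tested genes and Benjamini-Hochberg adjustment, and a gene was called at an adjusted p under 0.05.

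Across the 6 comparisons, 5 fbxa genes were called in at least 1. Lamin Y59C against wild-type gave 1 of 111 tested fbxa genes, a higher one (0.901%), against 0.509% of all tested genes called and 0.23% called higher. The cec-4 mutant against wild-type gave 0 by edgeR, which called 0.0209% of all tested genes, and 0 by DESeq2, while 10 (9.01%) had an unadjusted p under 0.05, against 4.88% of all tested genes. In the double mutant against wild-type 4 were called (3.6%), against 2.21% of all tested genes. Of these, 2 were higher and 2 lower, where 0.773% of all tested genes were called higher and 1.44% lower. The double mutant against lamin Y59C gave 1 lower gene (0.901%), against 0.676% of all tested genes called and 0.502% called lower. Against the cec-4 mutant, the double mutant gave 2 lower genes (1.8%), where 0.773% of all tested genes were called and 0.509% called lower. For the interaction, the effect of the lamin transgene in cec-4 mutants minus its effect in worms with CEC-4, edgeR called 0 fbxa genes and 0.0348% of all tested genes, and DESeq2 called 0 fbxa genes. At an unadjusted p under 0.05 there were 15 (13.5%), against 10.1% of all tested genes. With so few calls, the shares of the family rest on 1 to 4 genes each.

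**Figure D2:**
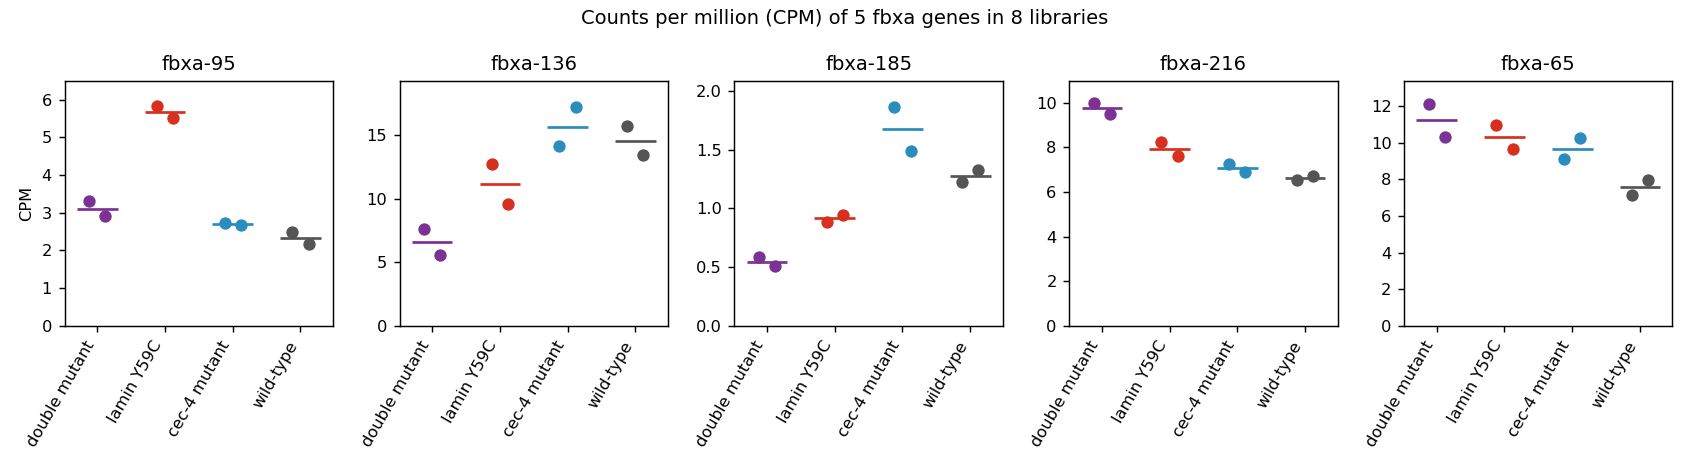
CPM in each of the 8 libraries of the 5 called fbxa genes, by genotype, with a bar at the mean of the 2 libraries. The lamin Y59C libraries of fbxa-95 stand above the other 6, and those of the double mutant are the lowest for fbxa-136 and fbxa-185 and the highest group mean for fbxa-216 and fbxa-65.

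The F-box gene fbxa-95 (WBGene00009222, V:15571476-15572715, plus strand, WBcel235) was higher in lamin Y59C and lower again in the double mutant. It had 3.31 and 2.91 CPM in the double mutant, 5.83 and 5.52 in lamin Y59C, 2.71 and 2.67 in the cec-4 mutant and 2.48 and 2.18 in wild-type. The lamin Y59C libraries stood above all others, and the 4 groups did not overlap. The log2 fold change was 1.30 ± 0.14 (SE) for lamin Y59C against wild-type (adjusted p = 0.00617) and -0.87 ± 0.14 when the double mutant was set against lamin Y59C (adjusted p = 0.0257). Between the double mutant and wild-type it was 0.43 ± 0.15 (adjusted p = 0.171), and the cec-4 mutant differed from wild-type by 0.22 ± 0.15 (adjusted p = 0.897). The interaction was -1.09 ± 0.21 (adjusted p = 0.134), so the lamin effects with and without CEC-4 were not shown to differ. The call against wild-type was lost without lamin Y59C a (adjusted p = 0.0616). That of the double mutant against lamin Y59C was lost without any 1 of these 4 libraries (lamin Y59C a 0.204, lamin Y59C b 0.0638, double mutant a 0.140, double mutant b 0.211, as adjusted p).

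The nearest upstream gene of fbxa-95 was called in the same direction in the same 2 comparisons. The gene lsm-5 (V:15570380-15570655), which encodes an Sm-like RNA-binding protein, ends 820 bp before fbxa-95 on the same strand. It had 41.9 and 37.4 CPM in the double mutant, 78.5 and 76.4 in lamin Y59C, 28.1 and 26.1 in the cec-4 mutant and 28.4 and 28.3 in wild-type. Its lamin Y59C libraries were the highest and its double mutant libraries came next, with a log2 fold change of 1.45 ± 0.07 in lamin Y59C against wild-type (adjusted p = 8.45e-06) and -0.97 ± 0.07 when the double mutant was set against it (adjusted p = 0.000201). Unlike fbxa-95, lsm-5 was also called in the double mutant over wild-type (0.49 ± 0.07, adjusted p = 0.00955), in the double mutant over the cec-4 mutant (0.55 ± 0.07, adjusted p = 0.0107) and for the interaction (-0.90 ± 0.10, adjusted p = 0.0161). The first of these was lost when wild-type a or double mutant a was left out (adjusted p up to 0.0817), the second without cec-4 mutant b or double mutant a (up to 0.0615), and the interaction without wild-type a, wild-type b, lamin Y59C a or double mutant b (up to 0.131). Its cec-4 mutant value over wild-type was -0.07 ± 0.07 (adjusted p = 0.912). Per 100 counts of lsm-5, fbxa-95 had 7.90 and 7.78 counts in the double mutant, 7.43 and 7.23 in lamin Y59C, 9.65 and 10.2 in the cec-4 mutant and 8.74 and 7.72 in wild-type. This ratio was lowest in lamin Y59C, and whether part of the fbxa-95 counts are reads from transcripts that start at lsm-5 was not tested.

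The fbxa gene on the other side had too few counts to tell whether it followed. The gene fbxa-94 starts 197 bp after fbxa-95 on the same strand and overlaps mdt-28 on the opposite one. It had 0.613 and 0.320 CPM in the double mutant, 0.756 and 0.284 in lamin Y59C, 0.360 and 0.445 in the cec-4 mutant and 0.691 and 0.266 in wild-type. Its libraries overlapped in all genotypes, and its log2 fold change in lamin Y59C against wild-type was 0.26 ± 0.55 (adjusted p = 0.876). Further upstream, acs-2, an acyl-CoA synthetase of fatty acid oxidation, was higher in the double mutant, by 2.10 ± 0.26 over the cec-4 mutant (adjusted p = 0.00888) and by 1.29 ± 0.24 over wild-type (adjusted p = 0.0257), calls that were lost without cec-4 mutant b (0.0506) and without wild-type a, wild-type b or double mutant b (up to 0.131). It had 0.75 ± 0.24 in lamin Y59C against wild-type (adjusted p = 0.197). Of the 7 tested neighbours within 10 kb, lsm-5 was the 1 called in lamin Y59C against wild-type. Within 10 kb of the other 4 called fbxa genes lay 13 other tested genes, and the lowest adjusted p among them was 0.122 (fbxa-189, beside fbxa-185).

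**Figure D3:**
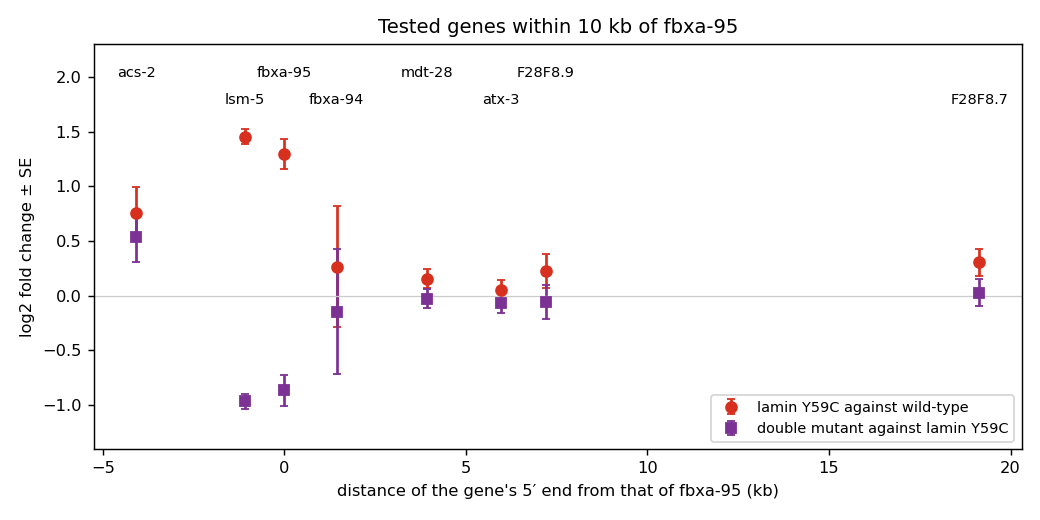
Log2 fold change ± SE (edgeR) of fbxa-95 and the 7 tested genes within 10 kb, against the distance in kb of each gene's 5′ end from that of fbxa-95; circles show lamin Y59C against wild-type and squares the double mutant against lamin Y59C. Both lsm-5 and fbxa-95 lie above 1 in the first comparison and at -0.87 or under in the second, mdt-28 and atx-3 lie near 0 in both, and fbxa-94 has wide error bars.

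Against both wild-type and the cec-4 mutant, the double mutant had 2 genes called lower, in different runs on the right arm of chromosome V. The gene fbxa-136 (WBGene00007672, V:17521035-17527479, plus strand) had 7.60 and 5.57 CPM in the double mutant, 12.8 and 9.59 in lamin Y59C, 14.1 and 17.3 in the cec-4 mutant and 15.7 and 13.5 in wild-type. The double mutant was lowest and lamin Y59C next, below the cec-4 mutant and wild-type, which overlapped. It fell by 1.14 ± 0.18 on the log2 scale in the double mutant against wild-type (adjusted p = 0.0134) and by 1.25 ± 0.18 against the cec-4 mutant (adjusted p = 0.0136). Against lamin Y59C the value was -0.76 ± 0.18 (adjusted p = 0.111 by edgeR, called by DESeq2), and lamin Y59C against wild-type gave -0.38 ± 0.17 (adjusted p = 0.342). The first call was lost without wild-type a or double mutant b (adjusted p = 0.101 and 0.111), and the second without cec-4 mutant b or double mutant b (0.0723 and 0.144).

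The gene fbxa-185 (WBGene00009836, V:17331640-17335556, plus strand) was also lowest in the double mutant, on few counts. It had 0.582 and 0.512 CPM in the double mutant, 0.882 and 0.947 in lamin Y59C, 1.86 and 1.49 in the cec-4 mutant and 1.22 and 1.33 in wild-type. These values rest on 19 and 16 counts in the double mutant, 28 and 30 in lamin Y59C, 57 and 57 in the cec-4 mutant and 39 and 75 in wild-type. The 4 groups did not overlap, with the double mutant lowest and the cec-4 mutant highest. In the double mutant it fell by 1.23 ± 0.24 against wild-type (adjusted p = 0.0356) and by 1.60 ± 0.24 against the cec-4 mutant (adjusted p = 0.0172). Against wild-type DESeq2 gave a log2 change of -1.23 but no adjusted p. The edgeR call against wild-type was lost without any 1 of the wild-type, lamin Y59C or double mutant libraries. The lamin Y59C libraries are not in that comparison, and without either of them the log2 change stayed at -1.23. With each library left out in turn, its log2 change ran from -1.32 to -1.14. The call against the cec-4 mutant was lost without cec-4 mutant a or either double mutant library, and its log2 change ran from -1.76 to -1.44. Its neighbour fbxa-189, within 10 kb, had -0.61 ± 0.18 in the double mutant against wild-type (adjusted p = 0.122).

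The increases in the double mutant were smaller. The gene fbxa-216 (WBGene00012953, I:11901660-11903310, plus strand) had 9.99 and 9.50 CPM in the double mutant, 8.26 and 7.64 in lamin Y59C, 7.26 and 6.88 in the cec-4 mutant and 6.53 and 6.71 in wild-type. The 4 groups did not overlap and stood in that order. It rose by 0.56 ± 0.10 on the log2 scale in the double mutant against wild-type (adjusted p = 0.0239), against 0.26 ± 0.10 in lamin Y59C against wild-type (adjusted p = 0.279) and 0.46 ± 0.10 in the double mutant against the cec-4 mutant (adjusted p = 0.0729). The call was lost without either wild-type or either double mutant library (adjusted p up to 0.162).

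The gene fbxa-65 (WBGene00015885, V:3345312-3346484, minus strand) had 12.1 and 10.3 CPM in the double mutant, 10.998 and 9.69 in lamin Y59C, 9.09 and 10.3 in the cec-4 mutant and 7.16 and 7.97 in wild-type. Both wild-type libraries were below the other 6, and the 3 mutant genotypes overlapped. It rose by 0.56 ± 0.12 in the double mutant against wild-type (adjusted p = 0.0467), where lamin Y59C gave 0.44 ± 0.12 (adjusted p = 0.151) and the cec-4 mutant 0.35 ± 0.12 (adjusted p = 0.897) against the same wild-type libraries. The call was lost without any 1 of the wild-type, lamin Y59C or double mutant libraries. The lamin Y59C libraries are not in this comparison, and without either of them the log2 change stayed at 0.56. With each library left out in turn, it ran from 0.44 to 0.67.

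Across the whole family the fitted changes were small. In lamin Y59C against wild-type the median log2 change of the 111 tested fbxa genes was 0.11, with 68 above 0, where all tested genes had a median of 0.00 and 51.4% above 0. This family median was 0.01 without lamin Y59C a and 0.17 without lamin Y59C b. For the cec-4 mutant against wild-type it was 0.12 with 84 above 0 (75.7%; all tested genes 51.9%), and ran from 0.05 without cec-4 mutant b to 0.18 without cec-4 mutant a. In the double mutant against wild-type it was 0.01 with 57 above 0 (51.4%; all tested genes 51.3%), and its sign changed without wild-type b or double mutant a (-0.03 and -0.06), with 0.07 without wild-type a and 0.04 without double mutant b. These 3 comparisons share the wild-type libraries.

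The comparisons among mutants reuse the same libraries, so their medians follow in part from those just given. The family median was -0.06 in the double mutant against lamin Y59C, with 46 of 111 above 0 (41.4%; all tested genes 50.8%), and ran from -0.16 without lamin Y59C b and -0.14 without double mutant a to 0.00 without lamin Y59C a. It was -0.12 in the double mutant against the cec-4 mutant, with 37 above 0 (all tested genes 49.4%), and ran from -0.24 without double mutant a to -0.07 without cec-4 mutant b. For the interaction it was -0.25, with 34 above 0 (30.6%; all tested genes 49.1%), and it stayed between -0.32 and -0.14 when any 1 library was left out. The size of these medians can be read against the spread between libraries. As the median log2 deviation of the tested fbxa genes from their own mean, the libraries were at -0.00 and -0.13 in the double mutant, 0.11 and -0.04 in lamin Y59C, 0.03 and 0.15 in the cec-4 mutant and -0.00 and -0.07 in wild-type. Libraries of 1 genotype thus differed by up to 0.15, with an SD within groups of 0.09, and the cec-4 mutant libraries lay above those of the double mutant and wild-type while the other pairs of genotypes overlapped.

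**Figure D4:**
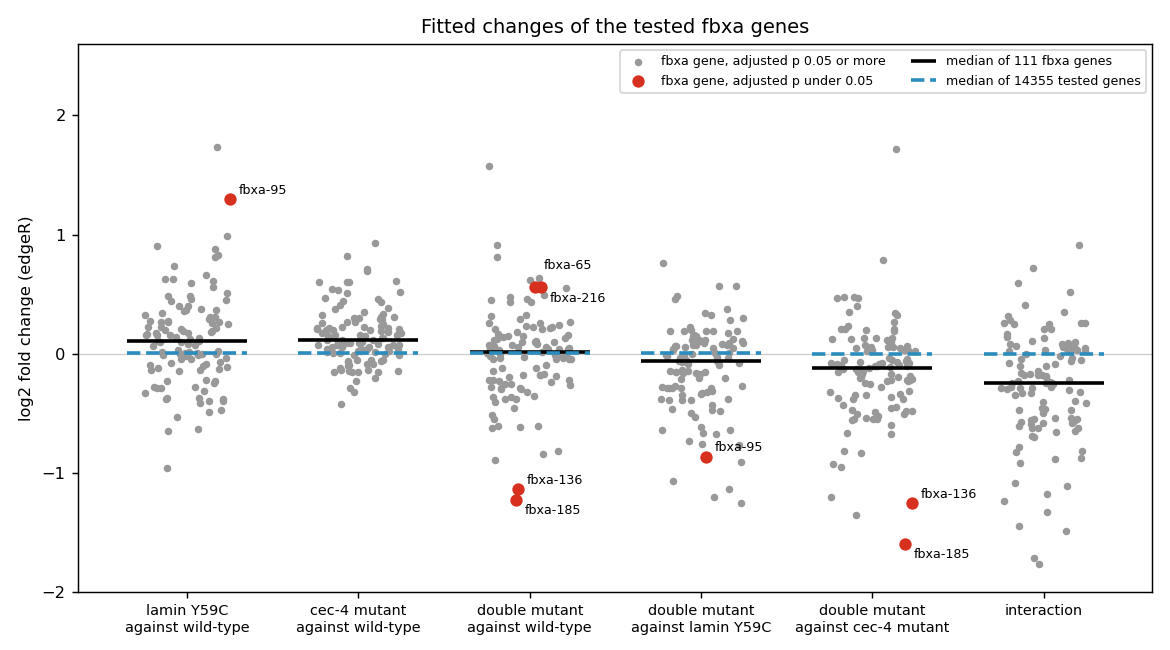
Log2 fold change (edgeR) of each of the 111 tested fbxa genes in the 6 comparisons; large red points are called genes, black bars the median of the fbxa genes and dashed bars the median of all 14355 tested genes. The family median lies between -0.25 and 0.12 in all 6 and is lowest for the interaction.

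Genes that missed the calling threshold but had the smallest p-values are given as values. In lamin Y59C against wild-type the largest was fbxa-171 (V:17563210-17566003). It had 0.644 and 0.512 CPM in the double mutant, 0.788 and 0.505 in lamin Y59C, 0.0981 and 0.235 in the cec-4 mutant and 0.157 and 0.213 in wild-type. All 4 libraries with the lamin transgene were above the 4 without it, with 1.73 ± 0.42 in lamin Y59C against wild-type (adjusted p = 0.119) and 1.72 ± 0.46 in the double mutant against the cec-4 mutant (adjusted p = 0.138), from 107 counts in all 8 libraries. Its neighbour fbxa-172, on the opposite strand, went the other way, with -1.20 ± 0.28 in the double mutant against the cec-4 mutant (adjusted p = 0.0874) and -0.28 ± 0.26 in lamin Y59C against wild-type (adjusted p = 0.681).

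In the same comparison of lamin Y59C with wild-type, fbxa-3 (0.48 ± 0.13), fbxa-65 and fbxa-209 (0.83 ± 0.24) were next above 0, and fbxa-80 (-0.53 ± 0.13) and fbxa-88 (-0.63 ± 0.20) below it, at adjusted p-values from 0.121 to 0.192. The counts of fbxa-3 and fbxa-88 are uncertain, since they overlap fbxc-19 and fbxa-18 on the opposite strand. The level of fbxa-80, in the longest run on chromosome III, was 5.27 and 5.31 CPM in the double mutant, 4.79 and 4.73 in lamin Y59C, 7.88 and 6.67 in the cec-4 mutant and 7.41 and 6.44 in wild-type. The 4 libraries with the transgene were again on 1 side, here the lower one, and did not overlap the others. For the cec-4 mutant against wild-type, fbxa-144 (0.93 ± 0.29), fbxa-67 (0.34 ± 0.11, overlapping WBGene00020459 on the same strand), fbxa-65 and fbxa-10 (0.54 ± 0.19) had the smallest p-values, all at an adjusted p of 0.897. The 10 fbxa genes with an unadjusted p under 0.05 there all had values above 0 (9.01% of the family, against 2.55% of all tested genes higher at that p).

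The double mutant set against lamin Y59C gave 12 fbxa genes below 0 and 2 above it at an unadjusted p under 0.05 (12.6% together, against 13.2% of all tested genes, 7.26% below and 5.96% above). Beside fbxa-95 and fbxa-136, the smallest p-values were those of fbxa-79 (-0.39 ± 0.09, adjusted p = 0.0941) and fbxa-18 (-1.26 ± 0.32, adjusted p = 0.123). The gene fbxa-79, among the most abundant per length, had 8.55 and 8.26 CPM in the double mutant, 11.1 and 10.9 in lamin Y59C, 9.84 and 9.76 in the cec-4 mutant and 10.3 and 10.1 in wild-type. Its double mutant libraries were the lowest and its lamin Y59C libraries the highest, with no overlap between groups. The gene fbxa-18 had 0.521 and 0.288 CPM in the double mutant, 1.07 and 0.883 in lamin Y59C, 1.01 and 1.07 in the cec-4 mutant and 0.753 and 0.763 in wild-type. It was lowest in the double mutant, and it overlaps fbxa-88 on the opposite strand, so its counts are uncertain.

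**Figure D5:**
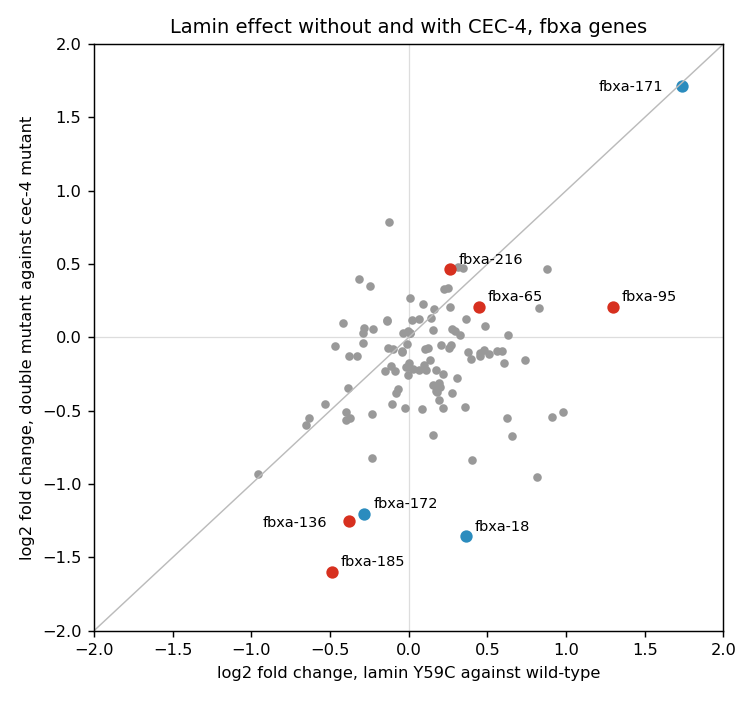
Log2 fold change of each tested fbxa gene for the lamin transgene with CEC-4 (lamin Y59C against wild-type, horizontal) and without it (double mutant against the cec-4 mutant, vertical), with the line of equal values; red points are called in a comparison and blue points are further genes given in the text. The gene fbxa-171 lies on the line at 1.73 and 1.72, fbxa-95 right of it at 1.30 and 0.21, and fbxa-136 and fbxa-185 under it.

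These 2 lamin effects use different libraries. For fbxa-95 the effect was 0.21 ± 0.15 without CEC-4 (double mutant against the cec-4 mutant) and 1.30 ± 0.14 with it. For fbxa-136 it was -1.25 ± 0.18 without CEC-4 and -0.38 ± 0.17 with it, and the interaction of -0.88 ± 0.25 was not called (adjusted p = 0.305). For fbxa-185 it was -1.60 ± 0.24 without and -0.49 ± 0.22 with CEC-4, an interaction of -1.11 ± 0.33 (adjusted p = 0.343). The smallest p-values after fbxa-95 were those of fbxa-18 (-1.72 ± 0.41, adjusted p = 0.232), fbxa-136 and fbxa-185, and the gene highest above 0 was fbxa-145 (0.91 ± 0.37, adjusted p = 0.452). That gene and fbxa-105 are the tested fbxa genes in the middle stretch of a chromosome: fbxa-145 had 0.63 ± 0.24 in the double mutant against wild-type (adjusted p = 0.207), and fbxa-105 -0.37 ± 0.16 (adjusted p = 0.273).

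The 3 long runs on chromosome III had 0 genes called by edgeR or DESeq2. Over all tested genes edgeR called 0.0209% to 2.21% in a comparison, so 0 calls in runs this small says little about them. At an unadjusted p under 0.05, the run of 27 had at most 5 of 17 tested genes (29.4%), in the double mutant against wild-type and against the cec-4 mutant, where 17.4% and 13.2% of all tested genes passed. The run of 15 had at most 1 of 9 (11.1%), in lamin Y59C against wild-type (14.6% of all tested genes). The run of 10 had at most 3 of 8 (37.5%), in the cec-4 mutant compared with wild-type (4.88% of all tested genes). In the run of 27, the median log2 change of its 17 tested genes was -0.00 in lamin Y59C against wild-type and -0.20 in the double mutant against the cec-4 mutant, where 15 were below 0. In the run of 15 the values were 0.18 and -0.13 over 9 genes, with 6 below 0 in the second comparison. In the run of 10, which holds fbxa-67 and fbxa-10, they were 0.34 and -0.16 over 8 genes, with 7 below 0 in the second. The family as a whole had 74 of 111 below 0 there (66.7%; all tested genes 50.6%). Genes of a run may share reads, so they are not independent.

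Some fbxa genes are known from the response of C. elegans to microsporidia and virus in the gut, in which FBXA-75 and FBXA-158 work with the cullin CUL-6 and the Skp1-related protein SKR-3, and fbxa-182 is also induced. In these larvae fbxa-75 had 2 counts in all. The gene fbxa-158 had 0.276 and 0.544 CPM in the double mutant, 0.536 and 0.600 in lamin Y59C, 0.719 and 0.445 in the cec-4 mutant and 0.471 and 0.497 in wild-type, with overlap between groups. The gene fbxa-182 had 0.919 and 1.12 CPM in the double mutant, 1.13 and 0.947 in lamin Y59C, 1.57 and 1.31 in the cec-4 mutant and 0.942 and 1.01 in wild-type, with its highest values in cec-4 mutant libraries (0.54 ± 0.22 over wild-type, adjusted p = 0.897). Of 44 genes of that response in the table, 26 were tested, and edgeR called 0 in all 6 comparisons. It called 0.0209% to 2.21% of all tested genes in a comparison, so 0 calls among 26 genes says little. In the double mutant against lamin Y59C, 9 of the 26 had an unadjusted p under 0.05 (34.6%, against 13.2% of all tested genes), all 9 lower, and DESeq2 called 1. Against the cec-4 mutant the double mutant also had 9 (34.6%, all tested genes 13.2%), 7 of them lower. For the interaction there were 8 (30.8%, all tested genes 10.1%), 7 of them lower. Against wild-type, lamin Y59C had 2 (7.69%, all tested genes 14.6%) and the cec-4 mutant 3 (11.5%, all tested genes 4.88%). The double mutant had 1 against wild-type (3.85%, all tested genes 17.4%). The 44 genes include cul-6, skr-3 and skr-4, which are also in the lists that follow.

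Of the tested partners that carry F-box proteins, edgeR called 0. It called 0.0209% to 2.21% of all tested genes in a comparison. In lists as small as those that follow, 0 calls therefore says little about the genes. Of 34 genes of the SCF core and its regulators found in the table, 25 were tested, and edgeR called 0 in each of the 6 comparisons, with at most 2 at an unadjusted p under 0.05 (8.0%, in the double mutant against lamin Y59C and against the cec-4 mutant, each with 13.2% of all tested genes). DESeq2 called 1 in the double mutant against lamin Y59C, and the closest gene by edgeR there was skr-3 (-0.32 ± 0.07, adjusted p = 0.0704). Of the 6 other cullins, edgeR and DESeq2 called 0, with at most 1 (16.7%) at an unadjusted p under 0.05. That was so in lamin Y59C against wild-type (14.6% of all tested genes), the double mutant against lamin Y59C (13.2%) and the interaction (10.1%). The nearest was cul-6, with -0.45 ± 0.13 in the double mutant over lamin Y59C (adjusted p = 0.185). Among 8 well-studied F-box genes outside the family, lin-23, a regulator of cell cycle exit, rose by 0.27 ± 0.06 in the double mutant against wild-type (adjusted p = 0.0480) and by 0.33 ± 0.06 against the cec-4 mutant (adjusted p = 0.0372). Both calls were lost when any 1 wild-type or double mutant library was left out, or cec-4 mutant b, and the second also without cec-4 mutant a (adjusted p up to 0.309 and 0.218). Its level averaged 97.7 CPM in the double mutant, 94.2 in lamin Y59C, 77.8 in the cec-4 mutant and 81.1 in wild-type. In the fbxb and fbxc families, and among 52 tested genes with a MATH domain or a BTB and a MATH domain, edgeR called 0 in all comparisons. The most at an unadjusted p under 0.05 were 3 of 14 fbxb genes (21.4%) in the double mutant against the cec-4 mutant (13.2% of all tested genes), 4 of 19 fbxc genes (21.1%) in lamin Y59C against wild-type (14.6%) and 9 of the 52 (17.3%) for the interaction (10.1%). DESeq2 called 0 outside 1 gene of the last group in the double mutant against the cec-4 mutant.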

How the data were processed

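Total RNA libraries from 8 samples in 4 genotypes were read as 50 bp single-end reads from a stranded kit, per the labels' protocols. Reads were aligned with Bowtie to ce10 and edgeR 3.24.0 was used, per the submitters' processing notes. How reads were counted per gene (tool, annotation, strand) is not given in the sources used here. The deposited count table holds whole-number counts per gene. The deposited normalized table is on the log2 scale. Scaling each count to the mean total of the libraries, adding 8 and taking the log2 gave its values back (0 differed by over 1e-06), and it was not used further.

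Counts were fitted with edgeR 4.0.16 in R 4.3.3 over all 8 libraries with 1 mean per group, TMM scaling and filterByExpr, which left 14355 of 20392 genes. The two-sided quasi-likelihood F-test was used, with Benjamini-Hochberg adjustment over all tested genes in each of 6 comparisons and a threshold of 0.05. SE is the size of the log2 change divided by the square root of F. CPM values are means ± SD (n = 2). Alternatives were DESeq2 1.42.0, RLE scaling, no filter, a fit on the compared groups alone, a replicate block and leaving out each library.

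Positions and exon lengths are those of WBcel235, looked up by gene ID; no coordinate was converted. The fbxa genes, the other gene lists and the rule for named genes were chosen with earlier results of these data known. The rule took the called fbxa genes, up to 4 per direction with the smallest p in each comparison, the 10 highest, 3 pathogen-response genes, neighbours within 10 kb, the 3 longest runs and, of each list, called genes or the closest; the text gives part of these. Overlapping genes were counted as deposited.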

Additional observations from a re-analysis of the deposited data

How the results depend on the processing

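The correlation of deviations from the group means between same-lettered libraries ran from -0.221 (cec-4 mutant with lamin Y59C) to 0.195 (lamin Y59C with the double mutant). These values do not settle whether the letters a and b pair the samples of some groups. With the replicate block, 1 fbxa gene (fbxa-136) was called in the double mutant against wild-type in place of 4, and 0 in place of 1 in the double mutant against lamin Y59C; it changed no other count of called fbxa genes. DESeq2 called 2 in the double mutant against lamin Y59C (fbxa-136 and fbxa-95). In the double mutant against wild-type it called 3 in place of 4 (fbxa-136, fbxa-216 and fbxa-65) and gave fbxa-185 no adjusted p. The share of all tested genes that DESeq2 called is not given here, so none of its counts can be set against that share. RLE scaling, no filter on low counts and a fit on the compared groups alone left all counts as they were. With each library left out in turn, the counts ran from 0 to 1 in lamin Y59C against wild-type and in the double mutant against lamin Y59C, from 0 to 5 in the double mutant against wild-type, and from 0 to 2 in the double mutant against the cec-4 mutant. The counts of 0 in the cec-4 mutant and the interaction held under all alternatives run. Called fold changes kept their direction under every alternative. The interaction of fbxa-95 ran from -1.18 to -0.98, at adjusted p-values of 0.0719 to 0.548. Leaving out a library leaves its group with 1, which is then assumed to vary like the others. With 2 libraries per group, few counts for many genes and 59 genes untested, smaller changes were not detectable, and the cause of lost calls was not tested.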
